A study of Homo sapiens with 15 samples.

Results

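H19, IGF2BP1 and a set of related oncofetal genes were followed across all conditions of a CRISPR knockout experiment in HSC-5, an established line of human cutaneous squamous cell carcinoma. The set held 8 of the 60649 genes listed in the tables: H19, IGF2, IGF2BP1, IGF2BP2, IGF2BP3, LIN28B, HMGA1 and HMGA2. H19 and IGF2BP1 were chosen by their measured levels, selected on a fall in the knockout libraries relative to the control libraries, and the other 6 were added as oncofetal or let-7-linked genes. All members, and the gene lists below, were chosen with earlier results of these data known. Counts of calls among them are thus no independent evidence. The knockout libraries are among the values that chose H19 and IGF2BP1, so the values of these genes are given as a description, with no test. Of the 8 genes, 6 had reads and the same 6 passed the filter on low counts that left 14056 genes to test, while IGF2 and LIN28B were listed at 0 in each of the 15 libraries. H19 passed only through its reads in the control, with a mean normalized count of 27.2 there and of 1.97 in the knockout libraries, where the filter asked for 3 over all libraries.

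The study asked what the loss of PRMT5, an arginine methyltransferase, and of its partner WDR77 does to the transcriptome of these cells. Poly(A) RNA of 15 cultures was sequenced, 3 labelled biological replicates in each of 5 conditions. The control, named sgNeg, carried the label WT and is described in the study's legends as an empty vector, sgPRMT5-1 and sgPRMT5-2 carried the label PRMT5 Knockout, and sgWDR77-1 and sgWDR77-2 carried the label WDR77 Knockout. Where 4 values follow each other they are in guide order, which is sgPRMT5-1 and then sgPRMT5-2, followed by sgWDR77-1 and then sgWDR77-2. All 15 libraries shared the treatment label Neomycin, and per the methods the cells expressed Cas9. Whether each culture was a clone or a pool is not given in the sources used here, and the labels do not say how separate the 3 replicates of a condition were, so p-values measure the spread between these cultures. The labels name a stranded mRNA kit and the methods an unstranded one, so that reads from overlapping genes on opposite strands may not be told apart.

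Oncofetal genes are active in the embryo, largely silent in adult tissue and often switched on again in carcinomas. H19 is an imprinted long noncoding RNA, made from the maternal allele next to the paternally expressed growth factor gene IGF2, and it is the precursor of the microRNA miR-675. The IGF2BP proteins bind mRNAs, many of them marked by m6A, and keep them stable or in storage, and IGF2BP1 and IGF2BP3 are the oncofetal members of the family. LIN28B blocks the maturation of let-7 microRNAs, and let-7 represses LIN28B itself, HMGA2 and IGF2BP1, among others. HMGA1 and HMGA2 are small chromatin proteins that bind AT-rich DNA.

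The set was drawn in part from genes linked to let-7, so their matches to let-7 describe the set and are no finding about it. The let-7 microRNAs in RefSeq (GRCh38.p14) comprised 9 different mature sequences from 12 loci, with 1 seed (bases 2 to 8) among them, GAGGUAG. Of these, 4 are shown, with the seed in capitals, together with miR-675-5p, which lies inside H19 at chr11:1996800-1996822 on the minus strand and has another seed, GGUGCGG.
hsa-let-7a-5p: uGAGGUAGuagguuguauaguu
hsa-let-7b-5p: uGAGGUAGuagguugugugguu
hsa-let-7g-5p: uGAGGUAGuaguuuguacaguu
hsa-miR-98-5p: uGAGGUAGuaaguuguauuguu
hsa-miR-675-5p: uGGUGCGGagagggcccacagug

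The letters CTACCTC pair with bases 2 to 8 of let-7, and CTACCTCA adds an A opposite base 1 (an 8mer match). In the 3′ untranslated regions (UTRs) of GENCODE v44 (hg38), read on the transcript strand, CTACCTC occurred 4 times each in IGF2BP1, LIN28B and HMGA2 and 1 time each in IGF2BP2, IGF2BP3 and HMGA1. It was not found in the 3′ UTR of IGF2, nor in the 31 annotated transcripts of H19. Among 19538 coding genes with an annotated 3′ UTR, 1908 (9.77%) had at least 1 CTACCTC and 12 (0.0614%) had at least 4. A match of letters is a description and not evidence of a bound site. The 3 8mer matches of IGF2BP1 and 1 site of each other gene are shown, with the match in capitals, because they set the genes with a strong match apart from HMGA1.
IGF2BP1, chr17:49051065-49051094, plus strand: tgcgaagtaaaCTACCTCAaggtatgaagt
IGF2BP1, chr17:49053702-49053731, plus strand: agtgctagtaaCTACCTCAcagagccccag
IGF2BP1, chr17:49054356-49054385, plus strand: aaatggattaaCTACCTCAatccttacagt
IGF2BP2, chr3:185644209-185644238, minus strand: cacagaagaagCTACCTCAggtgtttttac
IGF2BP3, chr7:23311784-23311813, minus strand: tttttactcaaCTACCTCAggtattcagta
LIN28B, chr6:105078816-105078845, plus strand: ggttgcaaagtCTACCTCAtgcaagtatag
HMGA2, chr12:65963302-65963331, plus strand: acgttcgatttCTACCTCAgcagcagttgg
HMGA1, chr6:34245833-34245862, plus strand: ctgttcacaaaCTACCTCtggacagttgtg

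Each library held 5146711 to 6730428 reads on genes, and levels are given in CPM, relative to each library's total of reads on genes multiplied by its TMM factor (0.956 to 1.05). A count of 0 allows up to 3 counts, which is 0.458 to 0.578 CPM in a single library and, for a gene at 0 in all 15, a mean level of 0.0346 CPM over all libraries together. Such limits and the intervals below cover counting error only. Replicates of a condition differed by more than counting noise in each pair, since chi-square divided by its degrees of freedom came to between 1.55 and 17.7. The library that stood furthest apart was sgWDR77-1 replicate 1, at 12.5 and 17.7 against the other replicates of its guide, which differed from each other by 3.21. Reads outside genes made up 2.75 to 7.16% of the listed reads, with the highest share in sgNeg replicate 2 (7.16%), and 6.04 and 5.70% in sgWDR77-1 replicates 2 and 3.

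The targeted genes were checked first. PRMT5 stood at 59.1, 49.6 and 67.8 CPM in sgNeg, at 33.0, 35.8 and 41.4 CPM with sgPRMT5-1 and at 44.2, 44.5 and 39.4 CPM with sgPRMT5-2. WDR77 stood at 125, 114 and 119 CPM in sgNeg, at 30.8, 52.0 and 53.3 CPM with sgWDR77-1 and at 26.6, 24.9 and 22.0 CPM with sgWDR77-2. Neither gene's knockout libraries overlapped with the control. In the limma voom fit over all 14056 genes, with Benjamini-Hochberg adjustment, PRMT5 differed from sgNeg by a log2 of −0.67 (adjusted p = 0.0057) and −0.45 (adjusted p = 0.0114). In the same limma voom fit, WDR77 differed by −1.43 (adjusted p = 2.02e-06) and −2.29 (adjusted p = 6.92e-09). A guide changes the DNA, and mRNA that remains can code for a defective protein, so these levels check the labels and not the amount of protein.

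The cell type was checked by marker genes. The 9 squamous keratinocyte markers summed to 1937 to 2912 CPM per library, with KRT17 the most abundant, and TP63 had a mean of 330 to 433 CPM in each condition, while KRT14 stayed under 1 CPM. KRT5, a basal keratin, had a mean of 656 CPM in sgNeg and of 270, 55.9, 40.0 and 91.3 CPM with the 4 guides in guide order. The 5 immune markers summed to at most 0.555 CPM. The 6 fibroblast markers summed to 6.68 to 16.2 CPM, nearly all from COL1A1, with COL1A2 at 0, and the 3 endothelial markers to 12.7 to 36.1 CPM, nearly all from CDH5. The mean of CDH5 was 18.5 CPM in sgNeg and 16.8, 15.5, 31.7 and 17.6 CPM in guide order. The 4 melanocyte markers summed to 2.55 to 7.48 CPM, mostly PMEL, with TYR and DCT at 0. KRT6A, a keratin of activated keratinocytes, had a mean of 21.3 CPM in sgNeg and of 6.63, 1.73, 1.54 and 4.57 CPM in guide order. The desmosome genes PKP1 and DSG3 had means of 8.84 and 55.4 CPM in sgNeg, of 2.14, 1.22, 2.58 and 4.86 CPM for PKP1 and of 39.4, 30.2, 27.9 and 35.1 CPM for DSG3 with the guides. The mean levels of KRT5, KRT6A, PKP1 and DSG3, and of KRT14 under 1 CPM, were thus lower in each knockout group than in sgNeg. Those of the other 4 markers were not: KRT17 had a mean of 807 CPM in sgNeg and of 873, 723, 805 and 1431 CPM in guide order, SFN of 509 and of 665, 692, 506 and 641 CPM, and the desmosome gene DSC3 of 203 and of 209, 182, 210 and 198 CPM. The part of these markers in the results was not tested. In bulk RNA, fewer cells that express a gene and less RNA per cell cannot be told apart.

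H19 (ENSG00000130600.19, chr11:1995166-2004552, minus strand) was a low transcript with most of its reads in the control, 83 there and 24 in the knockout libraries. Its counts were 34, 30 and 19 in sgNeg, 4, 5 and 1 with sgPRMT5-1, 1, 2 and 1 with sgPRMT5-2, 1, 2 and 1 with sgWDR77-1, and 0, 6 and 0 with sgWDR77-2. Every control library was above every knockout library, which follows in part from the choice of H19 for its fall. All 6 reads of sgWDR77-2 came from replicate 2, so the level with this guide rests on 1 library. In CPM the means were 4.71 ± 1.17 in sgNeg, 0.544 ± 0.344 and 0.222 ± 0.103 with the PRMT5 guides, and 0.246 ± 0.108 and 0.353 ± 0.612 with the WDR77 guides (SD, n = 3 each). Summed over replicates, the reads with each guide came to 11.5% (95% exact interval 5.34 to 22.3), 4.63% (1.23 to 12.3), 5.18% (1.38 to 13.8) and 7.71% (2.75 to 17.5) of those in sgNeg, in guide order. These 4 intervals overlap, and the order of the 4 guides cannot be read from 4 to 10 reads each. MIR675, the microRNA gene inside H19, was listed at 0 throughout, and a poly(A) library does not measure mature microRNAs.

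IGF2BP1 (ENSG00000159217.10, chr17:48997385-49056145, plus strand) fell into 3 levels that followed the targeted gene. Its counts were 87, 81 and 72 in sgNeg, 52, 46 and 30 with sgPRMT5-1, 53, 32 and 36 with sgPRMT5-2, 10, 3 and 6 with sgWDR77-1, and 4, 2 and 6 with sgWDR77-2. In CPM the means were 13.7 ± 0.900 in sgNeg, 6.96 ± 1.58 and 6.59 ± 1.47 with the PRMT5 guides, and 1.17 ± 0.649 and 0.735 ± 0.365 with the WDR77 guides (SD, n = 3 each). No library of one level overlapped with a library of another, and the guides of 1 gene did not differ beyond their spread. The gap between control and knockout libraries follows in part from the choice of IGF2BP1 for its fall, and is a description. Relative to sgNeg the summed reads were 51.1% (95% exact interval 40.9 to 63.6) and 48.4% (38.6 to 60.5) with the PRMT5 guides, and 8.5% (5.03 to 13.6) and 5.33% (2.72 to 9.49) with the WDR77 guides.

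**Figure D1:**
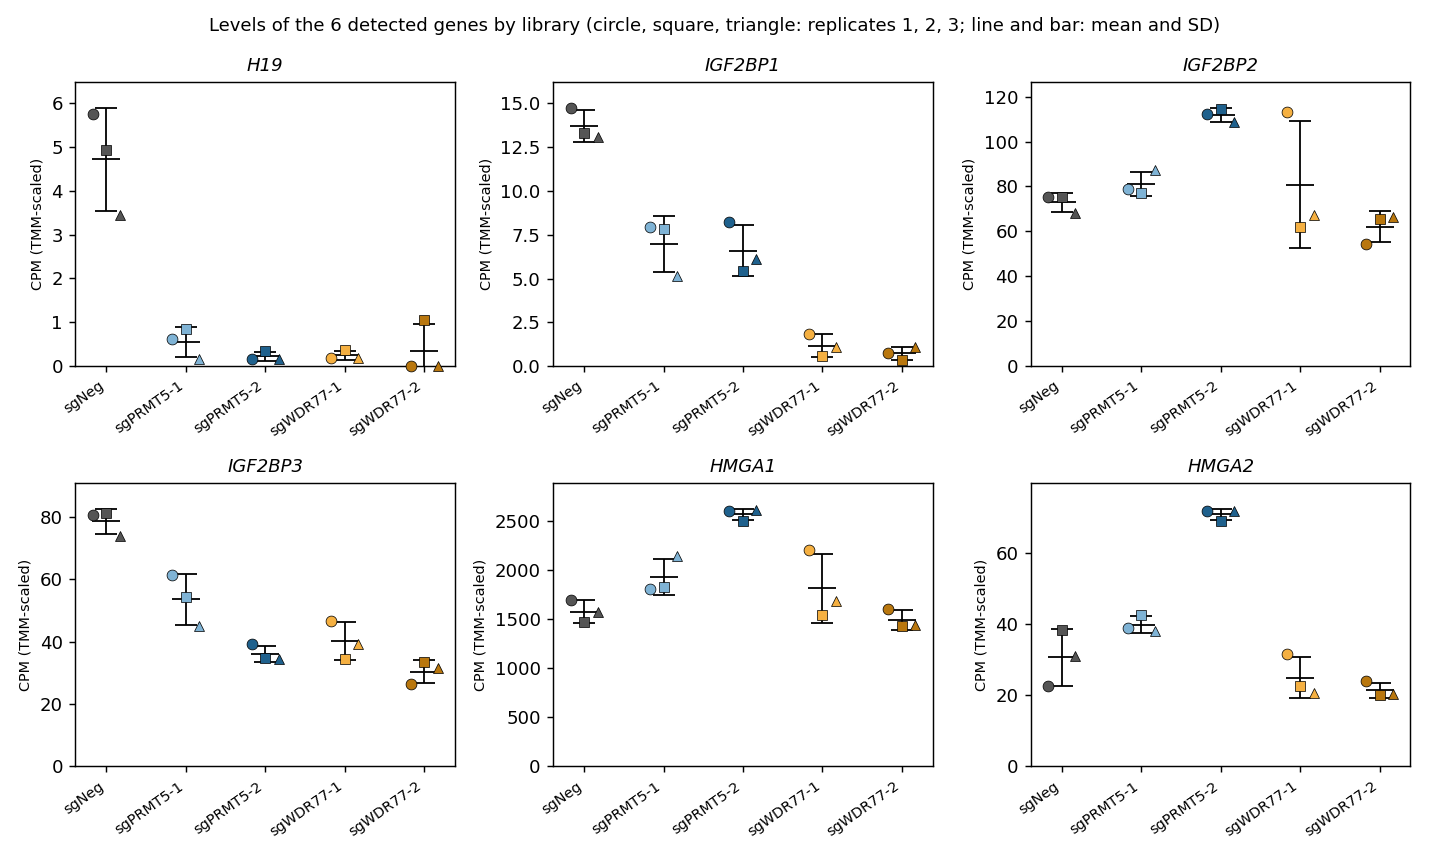
Levels in CPM (y axis, linear from 0, its own scale in each panel) of the 6 genes with reads in the 5 conditions (x axis); circles, squares and triangles are replicates 1, 2 and 3, lines and bars the mean and SD. H19 stood at 4.71 CPM in sgNeg and under 1 CPM on average with each guide, IGF2BP1 had 3 levels, and HMGA2 was highest with sgPRMT5-2, where its libraries were at 68.8 to 71.7 CPM.

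The contrast of the PRMT5 guides with the WDR77 guides leaves sgNeg out. Here and below, its p-values measure the spread between cultures of a guide and not that between the guides to a gene. They therefore do not tell an effect of the targeted gene from one of the single guides. IGF2BP1 stood at a mean of 6.78 CPM with the PRMT5 guides and of 0.950 CPM with the WDR77 guides, a log2 difference of 2.86 (SE 0.326), in 6 of 6 libraries and with no test. Of the 4 other genes with reads besides H19, 4 were called (adjusted p under 0.05) in this contrast, each higher, beside 15.7% of all genes tested called higher and 11.4% called lower. They were HMGA2 (log2 difference 1.21, limma voom with Benjamini-Hochberg adjusted p = 1.63e-07), HMGA1 (0.44, adjusted p = 0.000155), IGF2BP2 (0.45, adjusted p = 0.00324) and IGF2BP3 (0.33, adjusted p = 0.0137). The call of IGF2BP3 was lost without sgPRMT5-1 replicate 1 (0.26, limma voom with Benjamini-Hochberg adjusted p = 0.0603) and without sgPRMT5-2 replicate 1 (0.29, adjusted p = 0.0595). The libraries of IGF2BP2 and HMGA1 overlapped between the targeted genes through sgWDR77-1 replicate 1, at 113 CPM for IGF2BP2 and 2213 CPM for HMGA1. The mean of IGF2BP2 was 81.1 CPM with sgPRMT5-1, 112 CPM with sgPRMT5-2, 80.8 CPM with sgWDR77-1 and 62.1 CPM with sgWDR77-2. The libraries of IGF2BP3 overlapped as well, and its mean with sgPRMT5-2 (36.2 CPM) lay below that with sgWDR77-1 (40.2 CPM), while that with sgPRMT5-1 was 53.6 CPM.

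IGF2BP3, the second oncofetal member of the family, was lower than in sgNeg with each of the 4 guides. Its levels were 80.8, 81.2 and 73.8 CPM in sgNeg, 61.3, 54.5 and 45.0 CPM with sgPRMT5-1, 39.2, 34.8 and 34.5 CPM with sgPRMT5-2, 46.6, 34.6 and 39.4 CPM with sgWDR77-1, and 26.4, 33.4 and 31.5 CPM with sgWDR77-2. All 12 knockout libraries were below all 3 control libraries, a description, since the share of all genes with such a gap is not given here. The log2 differences were −0.56 (SE 0.121, adjusted p = 0.0113), −1.12 (SE 0.127, adjusted p = 1.27e-06), −0.98 (SE 0.127, adjusted p = 4.25e-05) and −1.37 (SE 0.133, adjusted p = 8.69e-07) in the limma voom fit with Benjamini-Hochberg adjustment, in guide order. These comparisons share the 3 control libraries. The call with sgPRMT5-1 was lost without sgPRMT5-1 replicate 3 (−0.47, adjusted p = 0.0768). The 3′ end of IGF2BP3 overlaps MALSU1 on the opposite strand, whose reads over all libraries came to 32.4% of those of IGF2BP3, and how reads in the overlap were assigned depends on a strand setting not given in the sources used here.

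IGF2BP2, the member that stays active in many adult tissues, did not follow IGF2BP1 and IGF2BP3. Its levels were 75.5, 75.1 and 68.0 CPM in sgNeg, 79.0, 77.2 and 87.2 CPM with sgPRMT5-1, 112, 115 and 109 CPM with sgPRMT5-2, 113, 61.8 and 67.3 CPM with sgWDR77-1, and 54.3, 65.5 and 66.4 CPM with sgWDR77-2. The sgPRMT5-2 libraries were above those of sgNeg by a log2 of 0.62 (SE 0.147, limma voom with Benjamini-Hochberg adjusted p = 0.00296), and sgPRMT5-1, sgWDR77-1 and sgWDR77-2 gave values of 0.15, 0.10 and −0.23 that did not pass the test. In sgWDR77-1 replicate 1, the library that stood apart, the level of 113 CPM was far above the other replicates, and without it the difference of sgWDR77-1 from sgNeg turned from 0.10 to −0.17, which did not pass the test either.

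Per kilobase of the annotated transcript, which allows levels of different genes to be compared, IGF2BP1 was the minor member of the family in every condition. In sgNeg it made up 4.21% of the summed CPM per kilobase of the 3 genes, beside 46.0% for IGF2BP2 and 49.7% for IGF2BP3. With sgPRMT5-1 and sgPRMT5-2 the share of IGF2BP1 was 2.45 and 2.12%, and with sgWDR77-1 and sgWDR77-2 it was 0.467 and 0.385%. IGF2BP2 held the largest share with each guide, at 58.7, 73.9, 66.4 and 66.8%, and IGF2BP3 held 38.9, 24.0, 33.1 and 32.8%. On the same scale HMGA1 stood at 823 and HMGA2 at 7.43 CPM per kilobase in sgNeg.

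**Figure D2:**
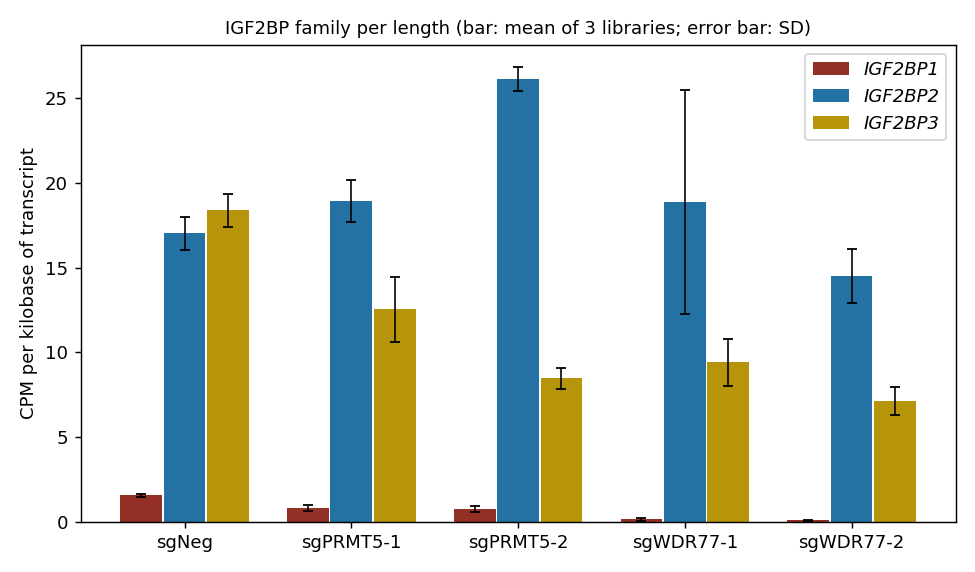
Mean CPM per kilobase of transcript (y axis, linear from 0) of IGF2BP1, IGF2BP2 and IGF2BP3 in the 5 conditions (x axis); error bars are the SD of 3 libraries. IGF2BP2 and IGF2BP3 were at 17 and 18.4 in sgNeg and at 26.1 and 8.47 with sgPRMT5-2, while IGF2BP1 stayed under 2 in every condition.

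The HMGA genes, which let-7 is known to repress, stood higher with sgPRMT5-2. HMGA1 was at 1698, 1471 and 1571 CPM in sgNeg and at 2602, 2508 and 2612 CPM with sgPRMT5-2, a log2 difference of 0.71 (SE 0.104, limma voom with Benjamini-Hochberg adjusted p = 3.19e-05). HMGA2 was at 22.5, 38.3 and 31.0 CPM in sgNeg and at 71.7, 68.8 and 71.7 CPM with sgPRMT5-2, a log2 difference of 1.24 (SE 0.149, limma voom with Benjamini-Hochberg adjusted p = 2.74e-06). Every library of sgPRMT5-2 was above every library of each other condition for both genes. The share of all genes with such a gap is not given here, so this is a description.

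With the other 3 guides the HMGA genes did not pass the test against sgNeg. HMGA1 stood at 1815, 1832 and 2150 CPM with sgPRMT5-1, at 2213, 1549 and 1686 CPM with sgWDR77-1 and at 1611, 1431 and 1439 CPM with sgWDR77-2, and its log2 differences were 0.29, 0.19 and −0.08. HMGA2 stood at 38.8, 42.6 and 38.0 CPM, at 31.6, 22.6 and 20.6 CPM and at 23.9, 20.0 and 20.3 CPM with these guides, and its log2 differences were 0.41, −0.29 and −0.49. The control libraries of HMGA2 were themselves spread from 22.5 to 38.3 CPM. Leaving out sgWDR77-1 replicate 1 called HMGA1 with sgPRMT5-1 (0.27, limma voom with Benjamini-Hochberg adjusted p = 0.0200) and HMGA2 with sgWDR77-2 (−0.50, adjusted p = 0.0461). HMGA2 with sgWDR77-2 was also called without sgNeg replicate 1 (−0.72, limma voom with Benjamini-Hochberg adjusted p = 0.0158). Genes antisense to HMGA2 had few reads, at 5.98% (RPSAP52) and 3.44% (HMGA2-AS1) of those of HMGA2, and 8 HMGA1 pseudogenes together had 82 reads beside 163852 on HMGA1.

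Among the 4 members that could be tested against sgNeg, 1 was called with sgPRMT5-1, in the lower direction, where 1.61% of all genes tested were called lower and 1.26% higher. With sgPRMT5-2, 3 were called higher and 1 lower, where 16.3% of all genes were called higher and 14.7% lower. With sgWDR77-1 it was 1, also lower, beside 5.9% of all genes called lower and 3.58% higher, and with sgWDR77-2 again 1, lower, beside 2.98% and 1.81%. The 1 member called lower was IGF2BP3 each time. Leaving out 1 library moved these counts to 0 (without sgPRMT5-1 replicate 3) or 2 (without sgWDR77-1 replicate 1) with sgPRMT5-1, and to 2 with sgWDR77-2 (without sgNeg replicate 1 or sgWDR77-1 replicate 1).

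**Figure D3:**
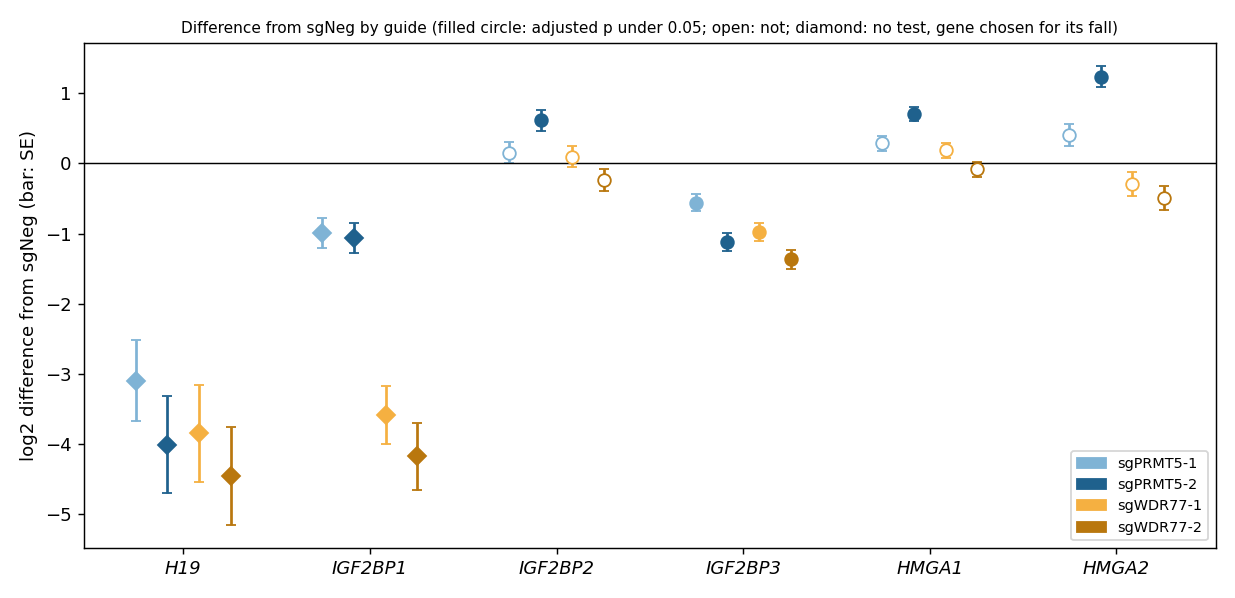
Fitted log2 difference from sgNeg (y axis; bars are the SE) of the 6 genes with reads (x axis) with each guide; filled circles had an adjusted p under 0.05, open circles did not, and diamonds mark H19 and IGF2BP1, which have no test. IGF2BP3 was lower with all 4 guides, IGF2BP2, HMGA1 and HMGA2 were called higher with sgPRMT5-2, and the values of H19 rest on 4 to 10 reads per guide.

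The 2 guides to PRMT5 differed from each other in several of these genes. With sgPRMT5-2 relative to sgPRMT5-1, 2 of the 4 genes tested were called higher and 1 lower, beside 3.56% and 3.98% of all genes tested. HMGA2 was higher by a log2 of 0.83 (SE 0.142, limma voom with Benjamini-Hochberg adjusted p = 0.00077) and HMGA1 by 0.42 (SE 0.104, adjusted p = 0.0159), and IGF2BP3 was lower by −0.56 (SE 0.131, adjusted p = 0.0114). PRMT5 mRNA itself did not pass the test between these guides, with a log2 difference of 0.22 (limma voom with Benjamini-Hochberg adjusted p = 0.330). The call of HMGA1 was lost without sgPRMT5-1 replicate 1 or 2 or sgPRMT5-2 replicate 1 or 3, with log2 differences of 0.37 to 0.41 (limma voom with Benjamini-Hochberg adjusted p = 0.0673 to 0.112). The call of IGF2BP3 was lost without sgPRMT5-1 replicate 1 or sgPRMT5-2 replicate 2 or 3, with −0.46 to −0.53 (limma voom with Benjamini-Hochberg adjusted p = 0.0561 to 0.0946). IGF2BP2 gave 0.47 (limma voom with Benjamini-Hochberg adjusted p = 0.0522) and was called without sgPRMT5-1 replicate 3, any of the 3 sgWDR77-1 libraries or sgWDR77-2 replicate 1, at 0.46 to 0.53 (adjusted p = 0.00102 to 0.0392). It was also called with RLE scaling (0.47, limma voom with Benjamini-Hochberg adjusted p = 0.0478), with only the groups compared in the fit (0.47, adjusted p = 0.000318), and with the percentage of reads outside genes as a covariate, an alternative chosen after seeing the data (0.55, adjusted p = 0.0266).

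Between the 2 guides to WDR77, 0 of the 4 genes were called, beside 1.84% of all genes called higher and 0.569% called lower with sgWDR77-2. At an unadjusted p under 0.05 the limma voom fit gave 3 of the 4, IGF2BP2 (−0.33), IGF2BP3 (−0.39) and HMGA1 (−0.27), each lower with sgWDR77-2. Such a p was found for 2657 of all 14056 genes tested. WDR77 itself was lower with sgWDR77-2 by −0.85 (limma voom with Benjamini-Hochberg adjusted p = 0.0157), a call lost without sgWDR77-2 replicate 1 or 2 (−0.92 and −0.88, adjusted p = 0.0675 and 0.0621).

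Across the 15 libraries, which share conditions and so are not independent points, Pearson r of log2 CPM was 0.905 between IGF2BP2 and HMGA1, 0.845 between HMGA1 and HMGA2 and 0.812 between IGF2BP2 and HMGA2. It was 0.855 between H19 and IGF2BP3, 0.778 between IGF2BP1 and IGF2BP3, 0.585 between H19 and IGF2BP1, 0.581 between IGF2BP1 and HMGA2 and 0.429 between IGF2BP1 and IGF2BP2. Values of r with H19 or IGF2BP1 hold the fall for which these genes were chosen. Between IGF2BP2 and IGF2BP3, r was 0.0423, and the other 6 pairs lay between −0.385 and 0.339.

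Most of the genes around H19 on chromosome 11 had no reads. Of 33 annotated genes within 250 kb, 21 were at 0 in all libraries and 4 passed the filter: MRPL23, TNNI2, SYT8 and CTSD. Of these 4, in guide order, 1, 3, 3 and 3 were called lower, beside 1.61, 14.7, 5.9 and 2.98% of all genes tested. CTSD, which codes for the lysosomal protease cathepsin D and starts 240 kb downstream, had a mean of 210 ± 20.4 CPM in sgNeg and of 124 ± 12.2, 80.5 ± 4.31, 113 ± 12.3 and 108 ± 9.81 CPM with the 4 guides in guide order (SD, n = 3 each). Its log2 differences of −0.76, −1.38, −0.89 and −0.95 all passed the limma voom test with Benjamini-Hochberg adjustment (adjusted p = 0.000161, 5.30e-09, 1.20e-05 and 4.59e-06).

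SYT8, a synaptotagmin gene, stood at 6.33 ± 0.834 CPM in sgNeg and at 3.17 ± 1.61, 0.755 ± 0.663, 1.11 ± 0.645 and 2.05 ± 1.51 CPM with the 4 guides in the same order. It was called lower with sgPRMT5-2 (−3.65, limma voom with Benjamini-Hochberg adjusted p = 0.000742), sgWDR77-1 (−2.54, adjusted p = 0.00876) and sgWDR77-2 (−1.79, adjusted p = 0.0401). The last call was lost without any 1 of 6 libraries, the 3 of sgNeg, sgPRMT5-1 replicate 1 and sgWDR77-2 replicates 1 and 2, at −1.43 to −1.90 (limma voom with Benjamini-Hochberg adjusted p up to 0.178).

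TNNI2, a troponin gene with 8, 34 and 22 counts in sgNeg and at most 9 elsewhere, was called lower with sgPRMT5-2 (−2.04, limma voom with Benjamini-Hochberg adjusted p = 0.0213) and sgWDR77-2 (−2.89, adjusted p = 0.0394). Its highest count was in sgNeg replicate 2, the library with the largest share of reads outside genes. The call with sgPRMT5-2 was lost without sgNeg replicate 2 or 3 or any sgPRMT5-2 library (−1.62 to −2.19, limma voom with Benjamini-Hochberg adjusted p = 0.0505 to 0.0812). The call with sgWDR77-2 was lost without sgNeg replicate 2 or 3 or any library of sgPRMT5-2 or sgWDR77-2 (−2.48 to −3.18, adjusted p = 0.0505 to 0.152). MRPL23, a mitochondrial ribosomal protein gene and the nearest of the 4, had a mean of 19.5 CPM in sgNeg and of 21.2, 18.2, 11.7 and 16.5 CPM in guide order. It was called lower with 1 guide, sgWDR77-1 (−0.76, limma voom with Benjamini-Hochberg adjusted p = 0.0115), and not without sgWDR77-1 replicate 1 (−0.57, adjusted p = 0.0553).

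Around IGF2BP1 on chromosome 17, 29 genes were annotated within 250 kb and 5 of them passed the filter: CALCOCO2, ATP5MC1, UBE2Z, SNF8 and ZNF652. With sgPRMT5-1 and sgWDR77-2, 0 of the 5 were called, and at an unadjusted p under 0.05 the limma voom fit gave 1 (ZNF652) and 0 of the 5. All 14056 genes tested gave 2457 and 2753 at such a p. With sgPRMT5-2, ZNF652 (−0.74, limma voom with Benjamini-Hochberg adjusted p = 0.000161) and the autophagy receptor gene CALCOCO2 (−0.38, adjusted p = 0.00362) were called lower, beside 14.7% of all genes. With sgWDR77-1, beside 5.9% of all genes, ATP5MC1 was called lower (−0.55, limma voom with Benjamini-Hochberg adjusted p = 0.0356), and not without sgNeg replicate 1 or 3, sgPRMT5-2 replicate 1 or 3, or sgWDR77-1 replicate 1 (−0.31 to −0.59, adjusted p = 0.0512 to 0.182). UBE2Z and SNF8, the nearest of them, gave log2 differences of −0.33 to 0.20 that did not pass the test.

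**Figure D4:**
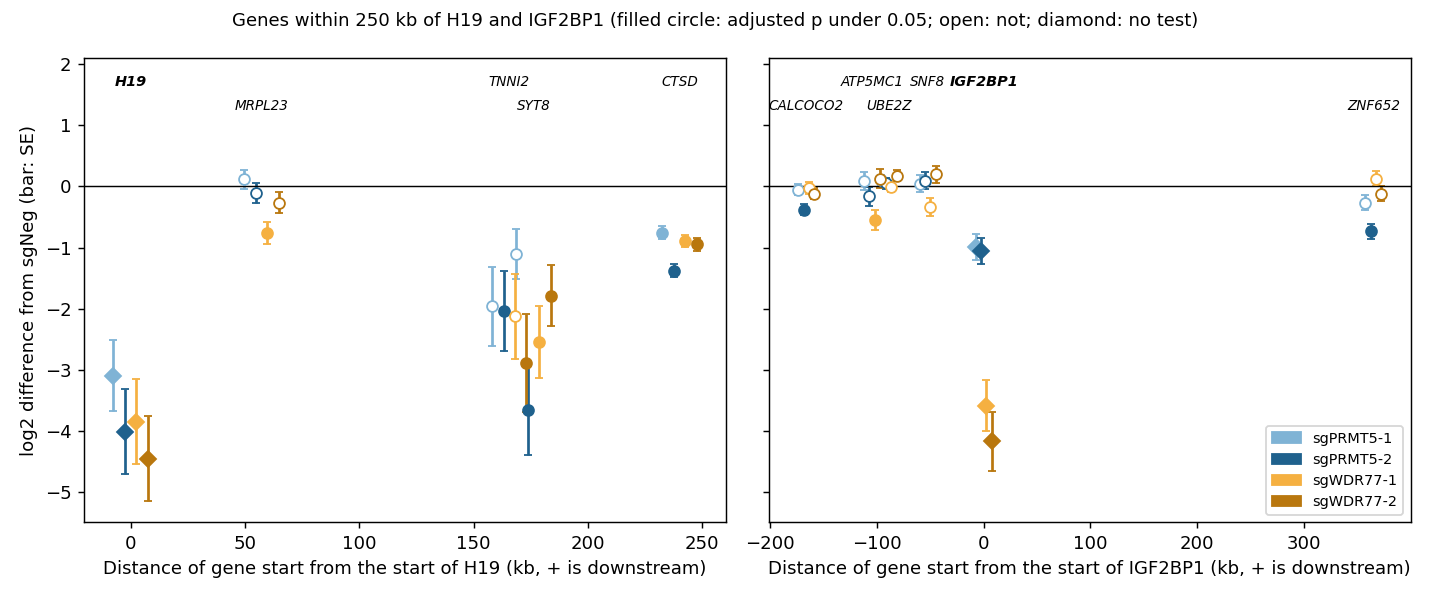
Fitted log2 difference from sgNeg (y axis; bars are the SE) with each guide for the tested genes with their nearest end within 250 kb of H19 (left) and IGF2BP1 (right), against the distance of the gene's start from the start of H19 or IGF2BP1 (x axis, kb; symbols of 1 gene are set slightly apart). Filled circles had an adjusted p under 0.05 and diamonds mark H19 and IGF2BP1, with no test; CTSD was lower with all 4 guides, by −0.76 to −1.38, and UBE2Z and SNF8 stayed between −0.33 and 0.20.

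IGF2 acts through the receptors IGF1R and INSR and is held back by the IGFBP proteins. Its own gene was listed at 0, and so were IGF1 and INS, which allows a mean level of up to 0.0346 CPM over all libraries together. For IGF2 and INS this limit need not hold, since both overlap INS-IGF2 on the same strand and shared reads may be among the ambiguous ones. Of 21 further genes of the IGF pathway, 14 passed the filter, IGFBP2 only through its reads in sgNeg. Of the 13 others, in guide order, 1, 1, 2 and 1 were called higher and 3, 6, 3 and 4 lower, beside 1.26, 16.3, 3.58 and 1.81% of all genes called higher and 1.61, 14.7, 5.9 and 2.98% called lower. Their median log2 difference was −0.17, −0.31, −0.08 and −0.08, where that of all genes tested was 0.02, 0.01, −0.01 and 0.02.

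The docking protein gene IRS1 was at 79.6, 78.1 and 65.7 CPM in sgNeg and between 39.8 and 57.5 CPM in the 12 knockout libraries. It was called lower with each guide (−0.57, −0.77, −0.70 and −0.63; limma voom with Benjamini-Hochberg adjusted p = 0.0131, 0.000108, 0.00127 and 0.00406), though with sgPRMT5-1 not without sgNeg replicate 1 or 2 or sgPRMT5-1 replicate 3 (−0.55 to −0.53, adjusted p = 0.0522 to 0.0785). IRS2, a related docking protein gene, was called lower with sgWDR77-2 (−0.71, limma voom with Benjamini-Hochberg adjusted p = 0.0115), and not without sgWDR77-2 replicate 1 (−0.61, adjusted p = 0.0588).

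The receptor gene IGF1R was at 150, 159 and 133 CPM in sgNeg, and at 77.9, 81.6 and 74.3 CPM with sgPRMT5-2. It was called lower with sgPRMT5-2 (−0.92, limma voom with Benjamini-Hochberg adjusted p = 3.61e-06), sgWDR77-1 (−0.56, adjusted p = 0.00286) and sgWDR77-2 (−1.03, adjusted p = 4.62e-06), while sgPRMT5-1 gave −0.35 (adjusted p = 0.0939). The insulin receptor gene INSR was called lower with sgPRMT5-2 (−0.80, limma voom with Benjamini-Hochberg adjusted p = 0.00796) and higher with sgWDR77-1 (0.70, adjusted p = 0.0168). The call with sgWDR77-1 was lost without sgNeg replicate 2 or 3 or sgWDR77-1 replicate 3 (0.61 to 0.63, limma voom with Benjamini-Hochberg adjusted p = 0.0521 to 0.0919). Between the PRMT5 guides and the WDR77 guides INSR itself differed by −1.09 (limma voom with Benjamini-Hochberg adjusted p = 1.19e-05).

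IGFBP2, which codes for an IGF-binding protein, was low, at 3.89, 1.81 and 5.62 CPM in sgNeg and 0 to 1.62 CPM elsewhere. It had 65 reads in sgNeg and 31 in the 12 knockout libraries, where its mean normalized count of 2.64 was under the filter, so its difference is given as a description. Its mean CPM was 5.56, 7.48, 13.0 and 22.5% of that in sgNeg, in guide order.

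IGFBP3, which codes for the main carrier of IGF in serum, was lower with the PRMT5 guides (−1.46 and −1.59, limma voom with Benjamini-Hochberg adjusted p = 0.000134 and 4.29e-06), and with the WDR77 guides it gave −0.08 and −0.08 (adjusted p = 0.837 and 0.846). The difference between the PRMT5 and WDR77 guides itself was −1.45 (limma voom with Benjamini-Hochberg adjusted p = 2.03e-07). IGFBP4 was called lower with sgPRMT5-1 (−0.77, limma voom with Benjamini-Hochberg adjusted p = 0.0236), sgPRMT5-2 (−0.87, adjusted p = 0.00123) and sgWDR77-2 (−0.89, adjusted p = 0.00725). The call with sgPRMT5-1 was lost without any sgNeg library or sgPRMT5-1 replicate 2 or 3 (−0.81 to −0.73, limma voom with Benjamini-Hochberg adjusted p = 0.0561 to 0.105), and that with sgWDR77-2 without sgWDR77-2 replicate 1 (−0.73, adjusted p = 0.0541). IGFBP6 was called lower with sgPRMT5-2 (−0.91, limma voom with Benjamini-Hochberg adjusted p = 4.56e-05) and sgWDR77-1 (−0.58, adjusted p = 0.00928), the latter not without sgNeg replicate 3 (−0.51, adjusted p = 0.0521).

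STC2 codes for stanniocalcin-2, a secreted inhibitor of the protease that cleaves IGFBP4, and it was called higher with each guide. Its levels were 83.6, 83.7 and 112 CPM in sgNeg, 126, 137 and 161 CPM with sgPRMT5-1, 192, 202 and 207 CPM with sgPRMT5-2, 118, 111 and 183 CPM with sgWDR77-1, and 147, 128 and 136 CPM with sgWDR77-2. The libraries of sgWDR77-1 overlapped with those of sgNeg and the others did not, a description without the share of all genes beside it. Its log2 differences were 0.61, 1.12, 0.54 and 0.57 (limma voom with Benjamini-Hochberg adjusted p = 0.0265, 8.12e-06, 0.0261 and 0.0285). The call with sgPRMT5-1 was lost without sgNeg replicate 1 or 2, sgPRMT5-1 replicate 2 or 3, sgPRMT5-2 replicate 2 or sgWDR77-2 replicate 2 (0.48 to 0.61, limma voom with Benjamini-Hochberg adjusted p = 0.0522 to 0.225). That with sgWDR77-1 was lost without sgNeg replicate 1 or 2 or sgWDR77-1 replicate 3 (0.31 to 0.47, limma voom with Benjamini-Hochberg adjusted p = 0.1 to 0.123). That with sgWDR77-2 was lost without sgNeg replicate 1 or 2, sgPRMT5-2 replicate 2 or any sgWDR77-2 library (0.47 to 0.59, limma voom with Benjamini-Hochberg adjusted p = 0.0572 to 0.157).

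**Figure D5:**
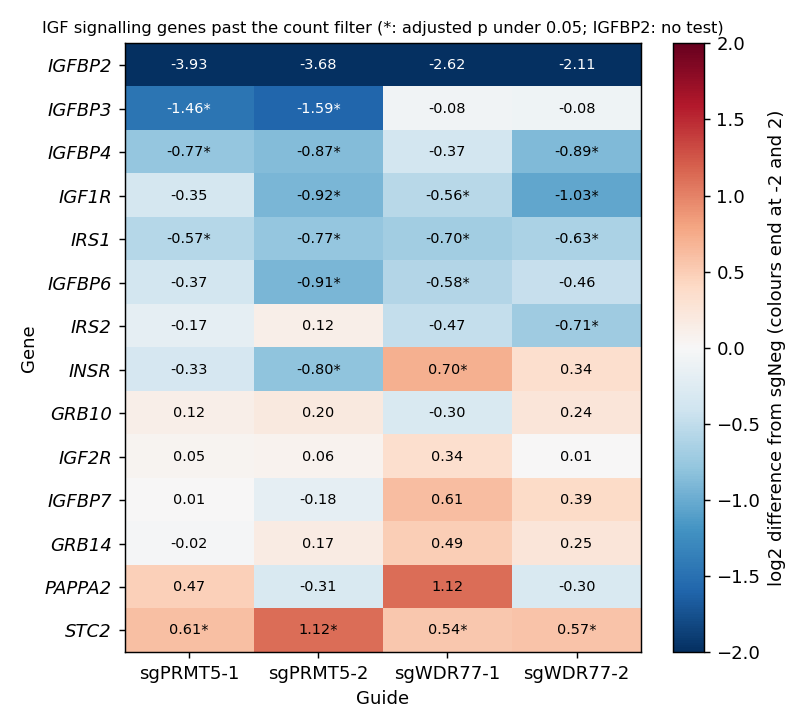
Log2 difference from sgNeg, printed in each cell and shown as colour (red higher, blue lower, colours ending at −2 and 2), for the 14 genes of the IGF pathway that passed the filter (rows) with each guide (columns); a star marks an adjusted p under 0.05, and IGFBP2, which passed the filter only through sgNeg, is shown with no test. IRS1 was starred lower in all 4 columns, and IGFBP3 in those of the PRMT5 guides only, with the difference between the targeted genes at −1.45.

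The wider group of genes with a let-7 match was set beside all genes. Leaving out the members, 728 genes with an 8mer match in the 3′ UTR were in the table and 522 passed the filter, 1 of them only through its reads in sgNeg. Of the 521 others, in guide order, 7, 80, 26 and 9 were called higher (1.34, 15.4, 4.99 and 1.73%, beside 1.26, 16.3, 3.58 and 1.81% of all genes) and 2, 87, 26 and 10 lower (0.384, 16.7, 4.99 and 1.92%, beside 1.61, 14.7, 5.9 and 2.98%). Their median log2 difference was 0.01, −0.01, 0.03 and −0.00, and that of all genes tested was 0.02, 0.01, −0.01 and 0.02.

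Of 20 well-known let-7 targets, 18 were tested, and their median log2 difference was 0.03, 0.11, −0.10 and 0.01 in guide order. With sgPRMT5-1, 0 of the 18 were called, and 3 had an unadjusted p under 0.05 in the limma voom fit. Such a p was found for 2457 of all 14056 genes tested. With sgPRMT5-2, 4 were called higher and 1, IGF1R as given above, lower, beside 16.3 and 14.7% of all genes. The 4 were the cyclin genes CCND2 (0.71, limma voom with Benjamini-Hochberg adjusted p = 4.99e-05) and CCND1 (0.32, adjusted p = 0.0029), the transcription factor gene ARID3B (0.64, adjusted p = 0.0073) and the phosphatase gene CDC25A (0.61, adjusted p = 0.0052), the last not without sgNeg replicate 1 (0.45, adjusted p = 0.0574). With sgWDR77-1, 3 were called lower, beside 5.9% of all genes: IGF1R, CCND2 (−1.35, limma voom with Benjamini-Hochberg adjusted p = 1.23e-06) and the kinase gene CDK6 (−0.58, adjusted p = 0.0106). With sgWDR77-2, 4 were called lower, beside 2.98% of all genes: IGF1R, CCND2 (−1.48, limma voom with Benjamini-Hochberg adjusted p = 5.21e-07), CCND1 (−0.36, adjusted p = 0.00572) and CDK6 (−0.49, adjusted p = 0.044). The call of CDK6 with sgWDR77-2 was lost without sgNeg replicate 2 or 3, sgPRMT5-1 replicate 2, sgPRMT5-2 replicate 1 or 3, or sgWDR77-2 replicate 2 or 3 (−0.55 to −0.41, limma voom with Benjamini-Hochberg adjusted p = 0.0535 to 0.153).

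In the contrast of the PRMT5 guides with the WDR77 guides, 7 of these 18 targets were called, each higher, beside the 15.7% of all genes given above, and their median was 0.15 against 0.02 for all genes tested. The widest was CCND2, at a mean of 55.4 CPM in sgNeg, 71.3 and 89.9 CPM with the PRMT5 guides and 21.6 and 19.7 CPM with the WDR77 guides. Its log2 difference was 1.95 (limma voom with Benjamini-Hochberg adjusted p = 7.19e-12), and that of its kinase partner CDK6 was 0.68 (adjusted p = 3.38e-05).

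Of 20 symbols of let-7 processing and effector genes, 17 were tested. With sgPRMT5-2, 5 were called higher, beside 16.3% of all genes: DICER1, which cuts microRNA precursors (0.44, limma voom with Benjamini-Hochberg adjusted p = 0.00294), the exporter gene XPO5 (0.56, adjusted p = 0.000692), KHSRP (0.39, adjusted p = 0.00621), and the Argonaute genes AGO2 (0.42, adjusted p = 0.000892) and AGO1 (0.35, adjusted p = 0.0218). AGO1 was not called without sgNeg replicate 1 or sgPRMT5-2 replicate 1 or 2 (0.24 to 0.33, limma voom with Benjamini-Hochberg adjusted p = 0.067 to 0.149). DICER1 was also called higher with sgWDR77-1 (0.39, limma voom with Benjamini-Hochberg adjusted p = 0.0219), beside 3.58% of all genes. That call was lost without sgNeg replicate 1 or 3 or sgWDR77-1 replicate 1 (0.28 to 0.36, limma voom with Benjamini-Hochberg adjusted p = 0.0584 to 0.165). AGO4, a further Argonaute gene, was lower with both PRMT5 guides (−0.91 and −1.51, limma voom with Benjamini-Hochberg adjusted p = 0.0479 and 0.000301), beside 1.61 and 14.7% of all genes. It was also lower with the PRMT5 guides than with the WDR77 guides (−1.20, limma voom with Benjamini-Hochberg adjusted p = 9.09e-05), beside 11.4% of all genes. The WDR77 guides lay on either side of sgNeg for AGO4, with means of 39.3 CPM (sgWDR77-1) and 21.5 CPM (sgWDR77-2) beside 28.7 CPM in sgNeg. Its call with sgPRMT5-1 was lost in 10 of the 15 fits without 1 library, those without any library of sgNeg or sgPRMT5-2, sgPRMT5-1 replicate 2 or 3, sgWDR77-1 replicate 2 or sgWDR77-2 replicate 2 (−1.03 to −0.58, limma voom with Benjamini-Hochberg adjusted p = 0.0516 to 0.323). With sgWDR77-2, 0 of the 17 were called, and 3 had an unadjusted p under 0.05 in the limma voom fit. Such a p was found for 2753 of all 14056 genes tested.

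LIN28A, the relative of LIN28B, had 1 read in all libraries together. Of 6 let-7 host transcripts, 4 were tested and 0 were called with any guide against sgNeg. In guide order, 1.26, 16.3, 3.58 and 1.81% of all genes were called higher and 1.61, 14.7, 5.9 and 2.98% lower. At an unadjusted p under 0.05 the limma voom fit gave 0, 1, 1 and 0 of the 4 in the same order. All 14056 genes tested gave 2457, 5880, 3366 and 2753 at such a p. Between the PRMT5 and WDR77 guides MIR100HG was higher by 0.89 (limma voom with Benjamini-Hochberg adjusted p = 0.0153), beside 15.7% of all genes called higher. It was not called without sgWDR77-2 replicate 3 (0.77, limma voom with Benjamini-Hochberg adjusted p = 0.054). These libraries do not measure mature let-7.

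Of 18 oncofetal and embryonic genes, 9 were tested, and SOX2 was called lower with each guide, beside 1.61, 14.7, 5.9 and 2.98% of all genes in guide order. SOX2, a transcription factor gene of squamous and embryonic cells, was at 17.1, 12.2 and 15.6 CPM in sgNeg and 2.33 to 9.54 CPM in the 12 knockout libraries. Its log2 differences were −1.21, −2.35, −0.86 and −0.97 (limma voom with Benjamini-Hochberg adjusted p = 0.00298, 2.89e-06, 0.0129 and 0.00896). The call with sgWDR77-1 was lost without its replicate 3 (−0.69, limma voom with Benjamini-Hochberg adjusted p = 0.0554), and that with sgWDR77-2 without its replicate 1 (−0.78, adjusted p = 0.0541). ROR1, an embryonic receptor gene, was called higher with sgPRMT5-2 (2.04, limma voom with Benjamini-Hochberg adjusted p = 4.81e-05), beside 16.3% of all genes. The DNA methyltransferase gene DNMT3B was called higher with sgWDR77-1 (0.38, limma voom with Benjamini-Hochberg adjusted p = 0.0386) and sgWDR77-2 (0.51, adjusted p = 0.00779), beside 3.58 and 1.81% of all genes. DNMT3B was not called with sgWDR77-1 without any sgNeg library, sgPRMT5-2 replicate 2, or replicate 2 or 3 of either WDR77 guide (0.31 to 0.40, limma voom with Benjamini-Hochberg adjusted p = 0.0529 to 0.167). With sgWDR77-2 it was not called without sgNeg replicate 1 or sgWDR77-2 replicate 2 (0.43 to 0.46, limma voom with Benjamini-Hochberg adjusted p = 0.0589 to 0.0694).

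Of 26 imprinted genes besides H19 and IGF2, 11 were tested, and 1, 4, 3 and 2 were called in guide order, each lower, beside 1.61, 14.7, 5.9 and 2.98% of all genes called lower. KCNQ1, a potassium channel gene near H19 on chromosome 11, was called with sgPRMT5-1 (−1.96, limma voom with Benjamini-Hochberg adjusted p = 0.0463), sgPRMT5-2 (−3.61, adjusted p = 0.00103) and sgWDR77-2 (−2.64, adjusted p = 0.0158). Its call with sgPRMT5-1 was lost without sgNeg replicate 1 or 2, any library of either PRMT5 guide, sgWDR77-1 replicate 2 or sgWDR77-2 replicate 3 (−2.52 to −1.61, limma voom with Benjamini-Hochberg adjusted p = 0.0556 to 0.259). That with sgWDR77-2 was lost without sgNeg replicate 1 or sgWDR77-2 replicate 1 or 3 (−2.64 to −1.93, limma voom with Benjamini-Hochberg adjusted p = 0.0519 to 0.104). GNAS, a G protein gene, was called with sgPRMT5-2 (−0.46, limma voom with Benjamini-Hochberg adjusted p = 0.000153), sgWDR77-1 (−0.31, adjusted p = 0.0156; without sgNeg replicate 1, −0.27, adjusted p = 0.0514) and sgWDR77-2 (−0.37, adjusted p = 0.00651). PEG10 was called with sgPRMT5-2 (−0.94, limma voom with Benjamini-Hochberg adjusted p = 2.85e-05) and with sgWDR77-1 (−0.56, adjusted p = 0.0111), the latter not without sgNeg replicate 3 or sgWDR77-1 replicate 3 (−0.50 to −0.39, adjusted p = 0.0522 to 0.053). SGCE was called with sgPRMT5-2 (−0.44, limma voom with Benjamini-Hochberg adjusted p = 0.0125), and not without sgNeg replicate 1 (−0.36, adjusted p = 0.0647). PLAGL1 was called with sgWDR77-1 (−1.09, limma voom with Benjamini-Hochberg adjusted p = 0.0442), and not without sgNeg replicate 2 or 3, any library of sgPRMT5-2 or sgWDR77-1, or sgWDR77-2 replicate 2 (−1.21 to −0.87, adjusted p = 0.0526 to 0.138).

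Of 13 factors that maintain imprints, 10 were tested. With sgPRMT5-1, 0 were called, and 3 had an unadjusted p under 0.05 in the limma voom fit, where 2457 of all 14056 genes did. With sgPRMT5-2, 4 were called higher and 2 lower, beside 16.3 and 14.7% of all genes. The 4 were DNMT1, which copies DNA methylation (0.62, limma voom with Benjamini-Hochberg adjusted p = 0.000531), its partner UHRF1 (0.54, adjusted p = 0.008), TRIM28 (0.51, adjusted p = 0.0115) and CTCF, which binds next to H19 (0.36, adjusted p = 0.0246). UHRF1 was not called without sgNeg replicate 1 (0.41, limma voom with Benjamini-Hochberg adjusted p = 0.0643), TRIM28 not without sgNeg replicate 2 or sgPRMT5-2 replicate 1 (0.42 to 0.47, adjusted p = 0.0569 to 0.0728), and CTCF not without sgNeg replicate 1 or 2 or any sgPRMT5-2 library (0.30 to 0.36, adjusted p = 0.0675 to 0.107). The 2 lower were DNMT3A (−0.57, limma voom with Benjamini-Hochberg adjusted p = 0.000526) and TET1 (−1.5, adjusted p = 0.0344), the latter not without sgNeg replicate 2 or sgPRMT5-2 replicate 2 or 3 (−1.55 to −1.14, adjusted p = 0.0821 to 0.146). With the WDR77 guides DNMT3B was higher, as given above. TET3 was lower with sgWDR77-1 (−0.45, limma voom with Benjamini-Hochberg adjusted p = 0.0113), beside 5.9% of all genes, and not called without sgNeg replicate 2 (−0.35, adjusted p = 0.0537). The counts hold neither DNA methylation nor the parental allele of H19.

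The IGF2BP proteins read m6A, and 22 writers, erasers and other readers of this mark were tested. With sgPRMT5-2, 6 were called higher and 1 lower, beside 16.3 and 14.7% of all genes. The widest of the 6 was FXR2 (0.75, limma voom with Benjamini-Hochberg adjusted p = 5.65e-05), and the 1 lower was CBLL1 (−0.42, adjusted p = 0.0152). Of the others, WTAP lost its call without sgNeg replicate 2 or 3, sgPRMT5-1 replicate 1 or any sgPRMT5-2 library (0.22 to 0.27, limma voom with Benjamini-Hochberg adjusted p = 0.0525 to 0.121), and VIRMA without any library of sgNeg or sgPRMT5-2 or sgPRMT5-1 replicate 1 (0.20 to 0.26, adjusted p = 0.0571 to 0.167). YTHDF1 lost it without sgNeg replicate 1 or any sgPRMT5-2 library (0.27 to 0.33, limma voom with Benjamini-Hochberg adjusted p = 0.0526 to 0.088), and YTHDC1 without sgNeg replicate 1 or sgPRMT5-2 replicate 1 (0.35 to 0.38, adjusted p = 0.0537 to 0.0632). Of the 7 calls, 4 were kept without sgNeg replicate 1 and without sgPRMT5-2 replicate 2 or 3, and 3 without sgPRMT5-2 replicate 1, where FTO gained one. With library totals alone, 4 were kept and FTO was gained. With upper-quartile scaling CBLL1 was not called (−0.34, limma voom with Benjamini-Hochberg adjusted p = 0.062), and YTHDC2 and YTHDF2 were gained. With only the groups compared, and also without sgWDR77-1 replicate 1, 10 were called and all 7 kept. CBLL1 was also called lower with sgWDR77-2 (−0.45, limma voom with Benjamini-Hochberg adjusted p = 0.0446), beside 2.98% of all genes. That call was lost without any sgNeg library, sgPRMT5-1 replicate 1 or 2, sgPRMT5-2 replicate 1 or 3, or sgWDR77-2 replicate 1 or 2 (−0.50 to −0.42, limma voom with Benjamini-Hochberg adjusted p = 0.0534 to 0.132). With sgPRMT5-1 and sgWDR77-1, 0 of the 22 were called, and 5 and 7 had an unadjusted p under 0.05 in the limma voom fit. All 14056 genes tested gave 2457 and 3366 at such a p.

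Of 8 other high mobility group genes, all tested, 0, 0, 1 and 0 were called higher in guide order, beside 1.26, 16.3, 3.58 and 1.81% of all genes. Called lower were 0, 1, 1 and 0, beside 1.61, 14.7, 5.9 and 2.98% of all genes. HMGN2, which binds nucleosomes, was lower with sgPRMT5-2 (−0.31, limma voom with Benjamini-Hochberg adjusted p = 0.0256) and sgWDR77-1 (−0.37, adjusted p = 0.0296). The first call was lost without sgNeg replicate 1 or sgPRMT5-2 replicate 2 or 3 (−0.33 to −0.30, limma voom with Benjamini-Hochberg adjusted p = 0.0502 to 0.0589), and the other without sgNeg replicate 1 or 3 or sgWDR77-1 replicate 2 or 3 (−0.37 to −0.25, adjusted p = 0.0598 to 0.106). HMGN5 was higher with sgWDR77-1 (0.93, limma voom with Benjamini-Hochberg adjusted p = 0.0244), and not called without any sgNeg library or sgWDR77-1 replicate 1 (0.55 to 1.03, adjusted p = 0.0502 to 0.0999). With sgPRMT5-1 and sgWDR77-2, 0 of the 8 were called, and 1 each had an unadjusted p under 0.05 in the limma voom fit. All 14056 genes tested gave 2457 and 2753 at such a p.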

How the data were processed

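The tables deposited by the authors hold raw read counts per gene, 1 table per library, made with htseq-count after STAR had placed the single-end reads on hg38. Which gene annotation they used, and which strand option, is not given in the sources used here. Summary lines that name no gene were left out of library sizes and tests: of the listed reads, 2.75 to 7.16% lay outside genes, 7.09 to 7.93% were ambiguous and 9.49 to 13.1% did not align uniquely. The members and gene lists were chosen with earlier results of these data known.

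Counts were scaled with TMM (30% of log ratios and 5% of mean levels trimmed), genes with a mean normalized count of at least 3 were kept, and 1 limma voom model with 5 groups was fitted to all 15 libraries (R 4.3.3, limma 3.58.1; Python 3.11.15 and matplotlib 3.10.9 for sequences and figures), with Benjamini-Hochberg adjustment over 14056 genes and a threshold of 0.05. The fit was tested on simulated data. Count tests of edgeR and DESeq2 were not run here. The tables hold raw counts, but they have no header and a layout other than their type. For this reason they could not be entered in the unit these tests need. Log2 CPM for correlations used a prior count of 2. Named were the 8 members, the targeted genes, up to 3 genes per list called with the most guides (ties by mean absolute log2 difference), list members behind a count of 5 or fewer, the 5 genes most like H19 and IGF2BP1 among genes of at least 1 CPM, and tested neighbours within 250 kb. Alternatives covered scaling, the filter, the replicate number as a block, the libraries in the fit, limma-trend, and each library left out in turn.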

Additional observations from a re-analysis of the deposited data

Results flagged for a closer look

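Between the guides to PRMT5, 3 of the genes differed by a test of the difference itself, which leaves sgNeg out. The calls of IGF2BP3 and HMGA1 were lost in 3 and 4 of the 15 fits without 1 library, as given above. With sgPRMT5-2 relative to sgPRMT5-1 the log2 difference was −0.56 for IGF2BP3, 0.42 for HMGA1 and 0.83 for HMGA2 (limma voom with Benjamini-Hochberg adjusted p = 0.0114, 0.0159 and 0.00077). PRMT5 mRNA did not pass the same test (0.22, limma voom with Benjamini-Hochberg adjusted p = 0.330), and its protein was not measured in these data.

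Between the guides to PRMT5 and those to WDR77, 4 genes differed by the same kind of test. Its p-values measure the spread between cultures of a guide, and not that between the 2 guides to a gene. The log2 difference was 0.45 for IGF2BP2, 0.33 for IGF2BP3, 0.44 for HMGA1 and 1.21 for HMGA2, each higher with the PRMT5 guides. IGF2BP1, which was chosen by its measured fall, gave 2.86, as a description. For IGF2BP3, HMGA1 and HMGA2 the mean over the PRMT5 guides holds 2 guides that differed from each other, as given above, and for IGF2BP2 their difference was 0.47 (limma voom with Benjamini-Hochberg adjusted p = 0.0522), called under some alternatives. What sets the guides apart was not tested.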

How the results depend on the processing

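Each result was computed under up to 24 alternatives: 8 other settings planned, 15 fits without 1 library, and a fit that adds each library's percentage of reads outside genes as a covariate, chosen after seeing the data. The planned edgeR and DESeq2 tests were not run. Of 998 log2 differences of the members, 968 were kept, 10 lost a call, 11 gained one, 4 of H19 moved by more than the replicate spread and 5 changed sign. Kept means the same direction and side of the threshold. H19 and IGF2BP1 against sgNeg have no threshold. They counted as kept with the same sign and a move under the largest replicate SD of the groups compared. For H19, 10 values could not be computed, since it fell under a filter. The sign changes were all among values not called or, for H19 and IGF2BP1, given with no test, each without 1 library: IGF2BP2 with sgWDR77-1 against sgNeg (−0.17; range −0.17 to 0.25), IGF2BP1 between the PRMT5 guides (0.04, 0.02 and 0.0566; range −0.25 to 0.0566), and H19 between the WDR77 guides (0.0366; range −1.83 to 0.0366). Against sgNeg limma-trend gave H19 −3.14, −3.08 and −3.17 with sgPRMT5-2, sgWDR77-1 and sgWDR77-2, where limma voom gave −4.01, −3.85 and −4.46, and the last was −5.69 without sgWDR77-2 replicate 2. For genes outside the members the same alternatives were added after seeing the data. Of 3592 values of other named genes, 3199 kept their call, 393 lost it and 0 changed sign; of 1512 list counts, 262 moved by over 1.5 times. Causes were not tested.

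The number of genes called moved with the libraries in the fit. With only the groups compared it was 385 for sgWDR77-1 against sgNeg (1333 in the fit of all groups), 2689 for sgPRMT5-2 against sgPRMT5-1 (1060) and 17 for sgWDR77-2 against sgWDR77-1 (339); the last was 220 with library totals alone and 171 with the covariate. Without 1 library the counts were 116 to 859 for sgPRMT5-1, 3109 to 5289 for sgPRMT5-2, 677 to 1496 for sgWDR77-1 and 393 to 1348 for sgWDR77-2 against sgNeg, where all libraries gave 404, 4361, 1333 and 674. They were 338 to 1980 between the PRMT5 guides, 45 to 505 between the WDR77 guides and 2872 to 4351 for PRMT5 against WDR77 guides (3813). Of the 4 members tested, 0 to 2, 4, 1, 1 to 2, 1 to 4, 0 and 3 to 4 were called in the same order. Another scaling moved the share of calls that were higher, here for the 4 guides against sgNeg, between the PRMT5 guides, between the WDR77 guides and for PRMT5 against WDR77 guides: with library totals alone it was 27.1, 37.9, 40.8, 29.6, 40.0, 60.0 and 41%, with upper-quartile scaling 49.4, 62.9, 52.0, 42.6, 59.1, 67.9 and 59.4%, and with TMM 43.8, 52.6, 37.7, 37.8, 47.2, 76.4 and 57.8%. No scaling changed the sign of a member's difference.

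The replicate numbers did not pair the libraries: deviations of same-numbered libraries correlated at −0.27 to 0.22 over 30 pairs, 4 of them over 0.1, and 3 of 15 libraries matched best with their own number. With the replicate number as a block the counts of genes called were 342, 4239, 1193, 592, 1002, 237 and 3711, in the same order, and no member's call changed. Of the other genes named, AGO4 (−0.90, adjusted p = 0.0633) and KCNQ1 (−1.96, adjusted p = 0.0687) with sgPRMT5-1 and CBLL1 (−0.45, adjusted p = 0.0618) with sgWDR77-2 lost their call in this limma voom fit with Benjamini-Hochberg adjustment, and no other call given against sgNeg or between the targeted genes changed.

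Depth limits H19, IGF2 and LIN28B most. A count of 0 in all 15 libraries allows a mean of up to 0.0346 CPM for IGF2 and LIN28B, and 0.458 to 0.578 CPM in any 1 library, and with 4 to 10 reads per guide the levels of H19 could not be ordered. IGF2 overlaps INS-IGF2 and other genes on its own strand. Reads shared between genes may be among the ambiguous ones, so this limit need not hold for IGF2. Reads overlapping on opposite strands, as for IGF2BP3 and MALSU1, may not be told apart, as the strand setting is not given. The counts hold no protein levels, and the 2 guides to a gene share only their target.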

Other observations

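The genes whose log2 CPM followed H19 most closely over the 15 libraries, among 12806 genes, were MMP13 (Pearson r = 0.905), B3GNT3 (0.890), ZNF358 (0.885), TMEM63C (0.882) and GRAMD1B (0.882). MMP13, which codes for a collagenase, had a mean of 53.8 CPM in sgNeg and of 18.9, 10.7, 12.7 and 12.1 CPM with the guides to PRMT5 (1, 2) and WDR77 (1, 2). B3GNT3 changed less, from 28.4 CPM in sgNeg to 21.8, 20.1, 21.2 and 19.3 CPM.

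Those closest to IGF2BP1 were WNT7B (r = 0.952), PBDC1 (0.950), COL4A2 (0.946), BAHCC1 (0.946) and NR2E1 (0.944). COL4A2, a basement membrane collagen gene, had a mean of 164 CPM in sgNeg, 124 and 95.9 CPM with the PRMT5 guides, and 35.1 and 41.1 CPM with the WDR77 guides. PBDC1 stood at 6.07 CPM in sgNeg, at 4.45 and 3.23 CPM, and at 0.367 and 0.675 CPM. These genes were picked for their likeness in the same libraries, so their pattern is a description with no test.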
